A study of Mus musculus with 72 samples.

Results

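The genes described here encode 45 factors of protein synthesis, taken by name from a list and not by a cut on measured values. That list was chosen with earlier results of these data known. It holds 8 listed under elongation, 7 of the eIF2 and eIF2B complexes, 12 subunits of eIF3, 10 factors that bind the mRNA cap, its leader or its poly(A) tail, 5 of scanning and subunit joining, 2 of termination, and Tpt1. Those listed under elongation include Eef1e1, a scaffold protein of the tRNA synthetase complex, and Eef2k, the eEF2 kinase, which are not elongation factors themselves. All 45 names were found among the 35149 genes of the acute input table, the 30901 of the acute polysomal table and the 35556 of each relapse table, and all 45 passed the filter on low counts in every fit. The lowest count of any of them in any library was 41, for Eif2b3 in the relapse input. They took 1.89% to 3.04% of counts in the acute input, 2.4% to 3.45% in the acute polysomal RNA, 1.89% to 2.5% in the relapse input and 2.8% to 3.43% in the relapse polysomal RNA. From textbook knowledge 12 of them have mRNAs with a terminal oligopyrimidine (TOP) tract, explained below: Eef1a1, Eef1b2, Eef1d, Eef1g, Eef2, Eif3a, Eif3e, Eif3f, Eif3h, Eif4b, Pabpc1 and Tpt1.

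Messenger RNA was measured in Eμ-Myc B-lymphoma cells, mouse cells in which a Myc transgene under the immunoglobulin heavy-chain enhancer drives lymphoma, and which also carry a GFP vector. In the acute study cells of 1 clone (4242) grew in C57BL/6 mice of unstated age, which were dosed on day 10 after transplant in groups of 6, with lymph nodes taken after 2 h. A first group had vehicle, another had 35 mg/kg of CX-5461, the next had everolimus (5 mg/kg), and the last had the combination, both drugs at those doses. In the relapse study cells of another clone (107) came from vehicle mice, or from mice whose disease had returned after CX-5461, everolimus or the combination. These cells were grown for 2 to 3 passages with no drug named in the culture, giving 3 lines a group. The lines from vehicle mice are called naive. CX-5461 inhibits RNA polymerase I, everolimus inhibits the kinase complex mTORC1, and each mouse or line gave 1 library of cytosolic input RNA and 1 of polysomal RNA, from the fractions with 4 or more ribosomes. No label says that the lines of a group came from separate mice, so p-values measure the spread between the samples as labelled. All lines of a study descend from 1 clone.

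Translation starts when eIF2, carrying GTP and the initiator tRNA, joins the small ribosomal subunit together with eIF3 and the scanning factors eIF1 and eIF1A. eIF2B reloads eIF2 with GTP and is the step that stress kinases block by phosphorylating eIF2. The cap is bound by eIF4F, made of the cap-binding protein eIF4E, the scaffold eIF4G and the helicase eIF4A, and mTORC1 keeps eIF4E free by phosphorylating its inhibitors, the 4E-BPs. Many mRNAs for elongation factors and some for initiation factors begin with a C followed by a run of pyrimidines, the TOP tract. When mTORC1 is inhibited, LARP1 binds that end and the mRNA leaves polysomes, while eEF2 kinase, which mTORC1 restrains, slows elongation by phosphorylating eEF2.

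Start sites are shown first, because a TOP mRNA is defined by its first bases. RefSeq sequence on GRCm38.p6 was matched for 35 of the 45 genes; Eif3e, Pabpc1, Eif2b3, Eif4g2, Eef1d, Eef1g, Eif3h, Etf1, Eif6 and Eif3i were not matched. Each line gives the strand of the gene from 8 bases before the annotated start to 22 bases from it, 5′ to 3′, and capitals mark the longest run of C and T that begins with a C in that window. All 7 matched TOP genes come first, from Eef1a1 to Tpt1, and then the 5 other genes with the largest called differences between the combination and CX-5461 in acute polysomal RNA.
Eef1a1, chr9:78481703-78481732, minus strand: ccgCCCTCTTCCCgagggtgggggagaacg
Eef1b2, chr1:63176823-63176852, plus strand: gcagttccgccggaagtagccgaggCCTTg
Eef2, chr10:81176623-81176652, plus strand: ggccgggcgttgacgtcagcggtCTCTTCC
Eif3a, chr19:60790672-60790701, minus strand: cgggcggcggcgCTgccgccgcgagggaat
Eif3f, chr7:108934407-108934436, plus strand: taggCTCTCTCTCTTTCTCggcaagatggc
Eif4b, chr15:102073765-102073794, plus strand: ccgtcggacgccgcgccaCCCCCTCgcgct
Tpt1, chr14:75845248-75845277, plus strand: CTgacgacagttccgggggagccgcggacg
Eif2s2, chr2:154892885-154892914, minus strand: ggttggCTTTactgtacgcctgcgctttgg
Eif4g3, chr4:137993447-137993476, plus strand: cgagcggccgtCCTgccggactgctggagg
Eif4g1, chr16:20672719-20672748, plus strand: gcagctccgCCCTCTgcgccggtcacgtgg
Eef1e1, chr13:38659007-38659036, minus strand: cctagctgtgcaggccccgCCTCCCTagga
Eif4e, chr3:138526183-138526212, plus strand: acagcagcggaggcggagggagctggtCCT
A run of at least 5 pyrimidines lay in this window in 11 of the 35 genes (31.4%), against 35.7% of the 27025 genes in the table. At least 7 were found in 9 of the 35 (25.7%, against 13.3%) and at least 10 in 3 (8.57%, against 3.4%), so whether the listed genes lie above or below all genes depends on the length asked for. Of the 7 TOP genes 4 had a run of at least 7, and Eif3a, Tpt1 and Eef1b2 had runs of 2, 2 and 4. A start at a C with at least 4 pyrimidines after it was found for 1 of the 35, Eif3f, whose run is 15 bases long, against 2.49% of all genes. In Eef2 the run begins 16 bases from the annotated start and in Eef1a1 it begins 5 bases before it. These are matches of letters at 1 annotated start per gene, and transcripts can start elsewhere.

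Labels and cells were checked first. Library totals, in units of M (mega) counts, were 17.1 to 24.7 for input and 11.5 to 20.9 for polysomal libraries of the acute experiment, and 14.6 to 26 and 15.5 to 30.4 for those of the relapse lines. Summed B lymphoma markers lay between 1310 and 1670 CPM (counts scaled to a common library total, with TMM normalisation) in the acute input. The nodes also held RNA of other cells, with myeloid markers at 422 to 660 CPM and stromal markers at 1100 to 2180, where the cultured lines had 5.15 to 8.06 and 26.2 to 44.6. T cell markers were lower after CX-5461 (47.5 to 56.2) and mostly after the combination (47.4 to 70.5) than after vehicle (68.6 to 90.3), with all 10 markers above 1 CPM in each of these input groups. Markers of NK and cytotoxic cells were lower as well, at 5.94 to 7.85 CPM after CX-5461 and 4.69 to 7.72 after the combination, with no overlap with vehicle (8.07 to 12.2), and 5, 4 and 2 of the 8 were above 1 CPM in vehicle, CX-5461 and combination mice. In bulk RNA fewer cells of a type and less RNA per cell cannot be told apart, and the part of other cells in the results below was not tested. Several libraries stood apart. Gm26870 and Gm10800 took 23.3%, 15% and 18.4% of the acute input counts of CX-5461 mice 4 and 6 and everolimus mouse 2, and Lars2 and Yam1 took 10.1% to 26.2% of the polysomal counts of vehicle mice 2, 5 and 6 and CX-5461 mouse 6. Acute groups were not sharply separated over all genes: 15 of 24 input and 14 of 24 polysomal libraries correlated best with the mean of their own group. The others were 5 of 6 everolimus mice in the input and 6 of 6 in polysomal RNA, CX-5461 mouse 3, vehicle mouse 6 and combination mouse 3 in both fractions, CX-5461 mouse 1 in the input and vehicle mouse 1 in polysomal RNA.

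The most abundant mRNAs of the 45 per base were those of some of the elongation factors. In the acute vehicle input Eef1a1, the factor that brings aminoacyl-tRNA to the ribosome, stood at 2990 CPM per kb of exon, and Eef2, the translocase, at 1890. Eif5a, which helps the ribosome through difficult peptide bonds, followed with 703 and Eef1g, a subunit of the exchange factor for eEF1A, with 471. At the other end were Eif5b, the GTPase of subunit joining, at 6.73 CPM per kb, and Eif2b3, the gamma subunit of eIF2B, at 4.3. Naive lines kept the same 2 genes at the top but in the other order, Eef2 at 1870 and Eef1a1 at 1210 CPM per kb. Reads of Eef1a1, Tpt1, Eif5a and Eif3c can be shared with pseudogenes or near copies, and how the authors' counting split them is not given in the sources used here. Eif3d shares 43.3% of its exon bases with other annotated genes, Eif5b 16.8% and Eif4a2 13.3%, so their counts are less certain.

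Polysomal RNA was first set against the input of the same mice, which shows how much of each mRNA sat on 4 or more ribosomes relative to the average mRNA. In vehicle mice 17 of the 45 genes were higher in polysomal RNA and 17 lower, together 75.6% of them, where 56.9% of the 16421 genes tested passed (24.7% higher and 32.2% lower). Without the mice that had a library rich in Gm26870 and Gm10800 or in Lars2 and Yam1, 28 of these 34 still passed. All 34 kept their direction there. The change in log2 from input to polysomal RNA had a median of 0.02 over the 45 and of -0.07 over all genes. Genes listed under elongation were mostly lower: 6 of 8, Eef1e1 among them, fell in polysomal RNA and 1 rose, with a median of -0.32. Subunits of eIF3 divided, with 8 of 12 lower and 2 higher. Cap and poly(A) factors leaned the other way, 6 of 10 higher and 1 lower, as did both termination factors and 3 of the 5 scanning and joining factors.

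**Figure D1:**
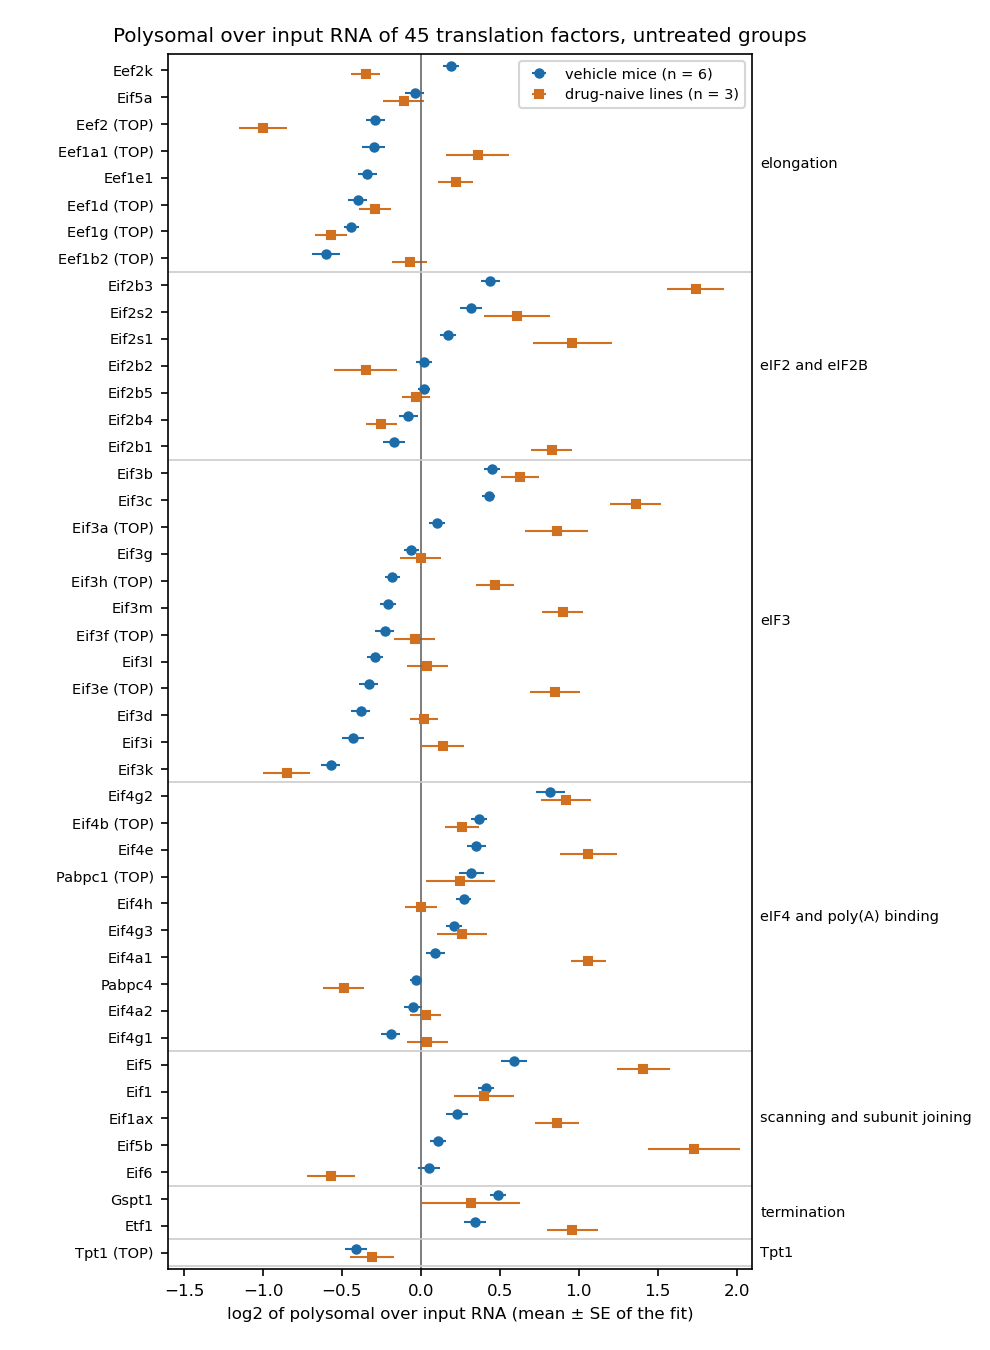
Log2 of polysomal over input RNA (horizontal axis) for each of the 45 genes, grouped by role, in vehicle mice (circles, n = 6) and naive lines (squares, n = 3), with bars for the standard error of the fit. In vehicle mice 6 of 8 genes listed under elongation lie below 0 past the threshold, and 6 of 10 cap and poly(A) factors lie above 0.

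Individual genes show the size of these shifts. Eif4g2, an eIF4G relative that works without the cap-binding protein, was highest: polysomal minus input log2 CPM was 0.68 in the lowest vehicle mouse, 0.74 at the median and 1.12 in the highest, and the fitted change was 0.82 ± 0.09 (SE). Eif5, which makes eIF2 hydrolyse its GTP at the start codon, followed at 0.59 ± 0.08, with mice from 0.42 to 0.83. The lowest was Eef1b2, an exchange factor subunit, at -0.60 ± 0.09 with mice from -0.96 to -0.33. Eif3k, an eIF3 subunit, came next at -0.57 ± 0.06 with mice from -0.88 to -0.39. In these 4 genes every vehicle mouse lay on the same side of 0. Pieces of the same complex differed: the eIF3 subunits Eif3b (0.45 ± 0.05) and Eif3c (0.43 ± 0.04) were higher in polysomal RNA, and Eif3d (-0.38 ± 0.06), Eif3e (-0.33 ± 0.06) and Eif3i (-0.43 ± 0.07) were lower. For eIF4F, Eif4e rose by 0.35 ± 0.06, Eif4g1 fell by 0.19 (± 0.06) and Eif4a1 (0.09 ± 0.06) did not pass.

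Among the 12 TOP genes 9 were lower in vehicle polysomal RNA and 2 higher, Eif4b (0.37 ± 0.05), a cofactor of the eIF4A helicase, and Pabpc1 (0.32 ± 0.08), the main poly(A)-binding protein. Their median was -0.29. It was -0.28 after CX-5461, -0.35 after everolimus and -0.46 after the combination, where the 45 genes had medians of -0.02, 0.07 and 0.05. Of the 45, 35 passed after CX-5461, 33 after everolimus and 31 after the combination, where 58.8%, 54.5% and 56.8% of all genes did. The TOP median was thus below that of the whole list in every treatment, vehicle included.

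Whether a drug shifted that ratio was tested by the term for treatment in the polysomal over input ratio, here called translational efficiency. No gene of the 45 passed for any drug in the acute study, and no gene of the 16421 did (0% called for CX-5461, everolimus and the combination). At an unadjusted p under 0.05 there were 1 of the 45 for CX-5461 (2.22%), 6 for everolimus (13.3%) and 6 for the combination (13.3%), where 4.85%, 6.54% and 13.1% of all genes were, and no other tool was run for this term. Eif3f, an eIF3 subunit and the gene with the long pyrimidine run above, was furthest down for the combination. Polysomal minus input log2 CPM of Eif3f was -0.46, -0.26 and 0.09 in the lowest, median and highest vehicle mouse, and -0.71, -0.58 and -0.27 after everolimus. After the combination it was -0.68, -0.55 and -0.49. Every combination mouse was lower than every vehicle mouse, and the everolimus mice overlapped with vehicle. Its efficiency term was -0.34 ± 0.08 for the combination (adjusted p = 0.231), -0.30 ± 0.08 for everolimus (0.56) and -0.20 ± 0.08 for CX-5461 (0.971).

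Tpt1, which encodes the translationally controlled tumour protein, had the largest everolimus term at -0.31 ± 0.10 (adjusted p = 0.591). Its polysomal minus input values ran from -0.51 to -0.29 in vehicle mice and from -1.08 to -0.42 after everolimus, so the groups overlapped. Pabpc1 had -0.29 ± 0.12 for everolimus (adjusted p = 0.718) and -0.17 ± 0.12 for the combination (0.532). Of the 12 TOP genes 10 had a negative term for everolimus (median -0.05) and 10 for the combination (median -0.10), where the medians over all genes were 0.02 and 0.03. Both comparisons share the vehicle mice. Eef2 had -0.07 ± 0.08 and 0.08 ± 0.08, and Eif4b -0.01 ± 0.08 and -0.06 ± 0.08. Outside the TOP genes Eif4g1 had the highest term for the combination, 0.26 ± 0.09 (adjusted p = 0.256), and Eif2s2, the beta subunit of eIF2, had -0.23 ± 0.11 (0.347).

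In acute input RNA the factors changed little within 2 h. With CX-5461 none of the 45 passed by edgeR or DESeq2, where 0.399% of the 16055 genes passed by edgeR. At an unadjusted p under 0.05 there were 3 of the 45 (6.67%), where 9.72% of all genes were. With everolimus none passed by either tool, where 0.106% of all genes did, and 6 were under an unadjusted 0.05 (13.3%, against 14.4%). After everolimus 37 of the 45 were below vehicle (82.2%, against 48.8% of all genes), with a median of -0.09 where that of all genes was 0.00. The combination changed 5 of 45 (11.1%), where 7.48% of all genes passed.

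Among these 5, parts of eIF2B fell. Eif2b5, its catalytic subunit (chromosome 16, 20498817 to 20509323), was at 169, 186 and 224 CPM in the lowest, median and highest vehicle mouse and at 127, 162 and 174 after the combination, a change of -0.27 ± 0.08 (adjusted p = 0.0421). Eif2b4, the delta subunit, went from 37, 45.3 and 56.3 CPM to 28.3, 35.4 and 42.9, a change of -0.35 ± 0.11 (0.0497). Eif6, which keeps the large ribosomal subunit from joining early, went from 133, 148 and 196 to 101, 131 and 141 CPM, at -0.35 ± 0.11 (0.048). All 3 were lower at the lowest, median and highest mouse, and in each the groups overlapped. Pabpc1 (chromosome 15, 36595661 to 36609668) rose from 552, 730 and 788 CPM to 732, 864 and 1140, by 0.35 ± 0.10 (0.0391). Eif5b rose from 54.8, 66.5 and 75 CPM to 65.4, 86.4 and 99.2, by 0.35 ± 0.10 (0.0421). In both the combination mice reached above the highest vehicle mouse, and the groups overlapped. These calls lay close to the threshold: none passed with the vehicle and combination libraries alone or with no count filter. With the 3 input libraries rich in Gm26870 and Gm10800 left out, 3 members passed, 2 of them among the 5. The count was 13 without vehicle mouse 6 and combination mouse 3. Those 2 mice were picked from these data because they resembled another group, which widens the difference by construction, so this rise is no support for the calls.

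Comparing the combination with either single drug gave no call among the 45 in the input. Against CX-5461, 14 had an unadjusted p under 0.05 (31.1%, where 25.4% of all genes had), DESeq2 called 9, and 0.866% of all genes passed by edgeR. Against everolimus, 4 were under 0.05 (8.89%, against 10.9%), DESeq2 called 0, and 0% of all genes passed. These comparisons share the combination mice with each other and with the one against vehicle.

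In acute polysomal RNA neither drug alone changed a factor past the threshold. For CX-5461 DESeq2 called 0 too, and 0.878% of the 15374 genes passed by edgeR. At an unadjusted p under 0.05 there were 14 of the 45 (31.1%), where 16.1% of all genes were. For everolimus 8 were under 0.05 (17.8%, against 10.9%), DESeq2 called 0 and 0.15% of all genes passed. After everolimus 42 of the 45 were below vehicle (93.3%, against 51% of all genes), with a median of -0.09 where that of all genes was 0.00. All 12 TOP genes were below, with a median of -0.13. Vehicle mice 2, 5 and 6 had polysomal libraries rich in Lars2 and Yam1. Without the rich libraries the TOP gene Eif3a was above vehicle, at 0.12, and Eif5a, not a TOP gene, turned from above to below, at -0.07. Eef1a1 (chromosome 9, 78478449 to 78489151) was at 6770, 7550 and 7810 CPM after vehicle and at 5760, 6040 and 7670 after everolimus, a difference of -0.25 ± 0.08 (adjusted p = 0.226). Eif3f was at 199, 224 and 247 CPM after vehicle and 159, 191 and 217 after everolimus, a difference of -0.26 ± 0.08 (0.19). In both genes all everolimus mice but mouse 2 lay under the lowest vehicle mouse. Eef2 (-0.10 ± 0.09), Eef2k (-0.11 ± 0.07), Eif5a (0.02 ± 0.09), Eif4e (-0.13 ± 0.08) and Eif4b (-0.11 ± 0.06) did not pass.

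Given together, the drugs lowered 3 of the 45 in polysomal RNA relative to vehicle (6.67%), where 7.42% of all genes passed. Eif2s2 (chromosome 2, 154871410 to 154892935) had 144, 161 and 184 CPM in vehicle mice and 111, 121 and 135 after the combination, a change of -0.38 ± 0.11 (adjusted p = 0.036). Eef1e1, a scaffold protein of the tRNA synthetase complex, had 41.1, 49.1 and 60.1 CPM and then 34.2, 39.9 and 45.4, at -0.34 ± 0.10 (0.0364). Eif1, which keeps the scanning ribosome open until the start codon is met, had 176, 183 and 191 CPM and then 150, 152 and 169, at -0.24 ± 0.06 (0.0172). For Eif2s2 and Eif1 every combination mouse was below every vehicle mouse, and for Eef1e1 the groups overlapped. With the Lars2 and Yam1 libraries left out the count was 5, with 2 of the 3 kept. Without vehicle mouse 6 and combination mouse 3 it was 13, which again follows in part from how those mice were picked and is no support. T cell markers were lower here too, at 52.6 to 79.5 CPM in combination and 75.7 to 108 in vehicle polysomal RNA, as were NK and cytotoxic markers, at 4.68 to 8.01 and 9.28 to 12.9.

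Several central factors stayed within overlapping ranges in all 4 acute groups. In polysomal RNA Eef2 was at 5810, 6400 and 6570 CPM after vehicle, 5490, 5860 and 6120 after CX-5461, 5180, 5670 and 7020 after everolimus and 5630, 6500 and 7600 after the combination. Eef2k was at 86.7, 90 and 92.4, then 75.5, 85 and 87.7, then 71.6, 82.7 and 95.2, and last 73.4, 85.3 and 96.8 CPM. For both genes the vehicle range overlaps with each of the others. Eif5a was at 1740, 1910 and 2350 CPM after vehicle and 1500, 1820 and 1900 after the combination. Eif4b was at 739, 782 and 823 CPM after vehicle, 654, 714 and 777 after everolimus and 769, 807 and 848 after the combination. Everolimus mice were lowest in Eif4b without passing the test. Eif3a, the largest eIF3 subunit, was at 418, 492 and 602 CPM after vehicle and 479, 527 and 589 after the combination. Eif4a2 was at 109, 115 and 120 after vehicle and 92.1, 122 and 156 after the combination, where the mice spread most widely. Pabpc1 was at 936, 1080 and 1190 CPM after vehicle, 1050, 1220 and 1660 after CX-5461, 842, 972 and 1110 after everolimus and 1030, 1190 and 1380 after the combination. It was lowest after everolimus, also without passing.

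In the acute input the same held for most of the list. Eef1a1 was at 6920, 7410 and 8100 CPM after vehicle and 5270, 6500 and 7130 after everolimus (-0.21 ± 0.08, adjusted p = 0.281). Tpt1 was at 641, 656 and 682 CPM after vehicle and 747, 798 and 887 after CX-5461 (0.29 ± 0.10, 0.249). Every CX-5461 mouse was above every vehicle mouse in Tpt1, although the gene did not pass over all genes tested. Eif4e was at 87.7, 92.5 and 104 CPM after vehicle and 84.6, 88.6 and 99.1 after the combination (-0.04 ± 0.07), and Eif2s1 at 163, 175 and 194 and 160, 171 and 175 (-0.06 ± 0.07). Both overlapped. Eif4a1 was at 872, 946 and 1060 CPM after vehicle and 722, 835 and 902 after the combination (-0.22 ± 0.08, adjusted p = 0.0698). Eif3m (-0.20 ± 0.07, 0.0777) and Eef1e1 (-0.27 ± 0.10, 0.0828) also lay just short of the threshold.

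**Figure D2:**
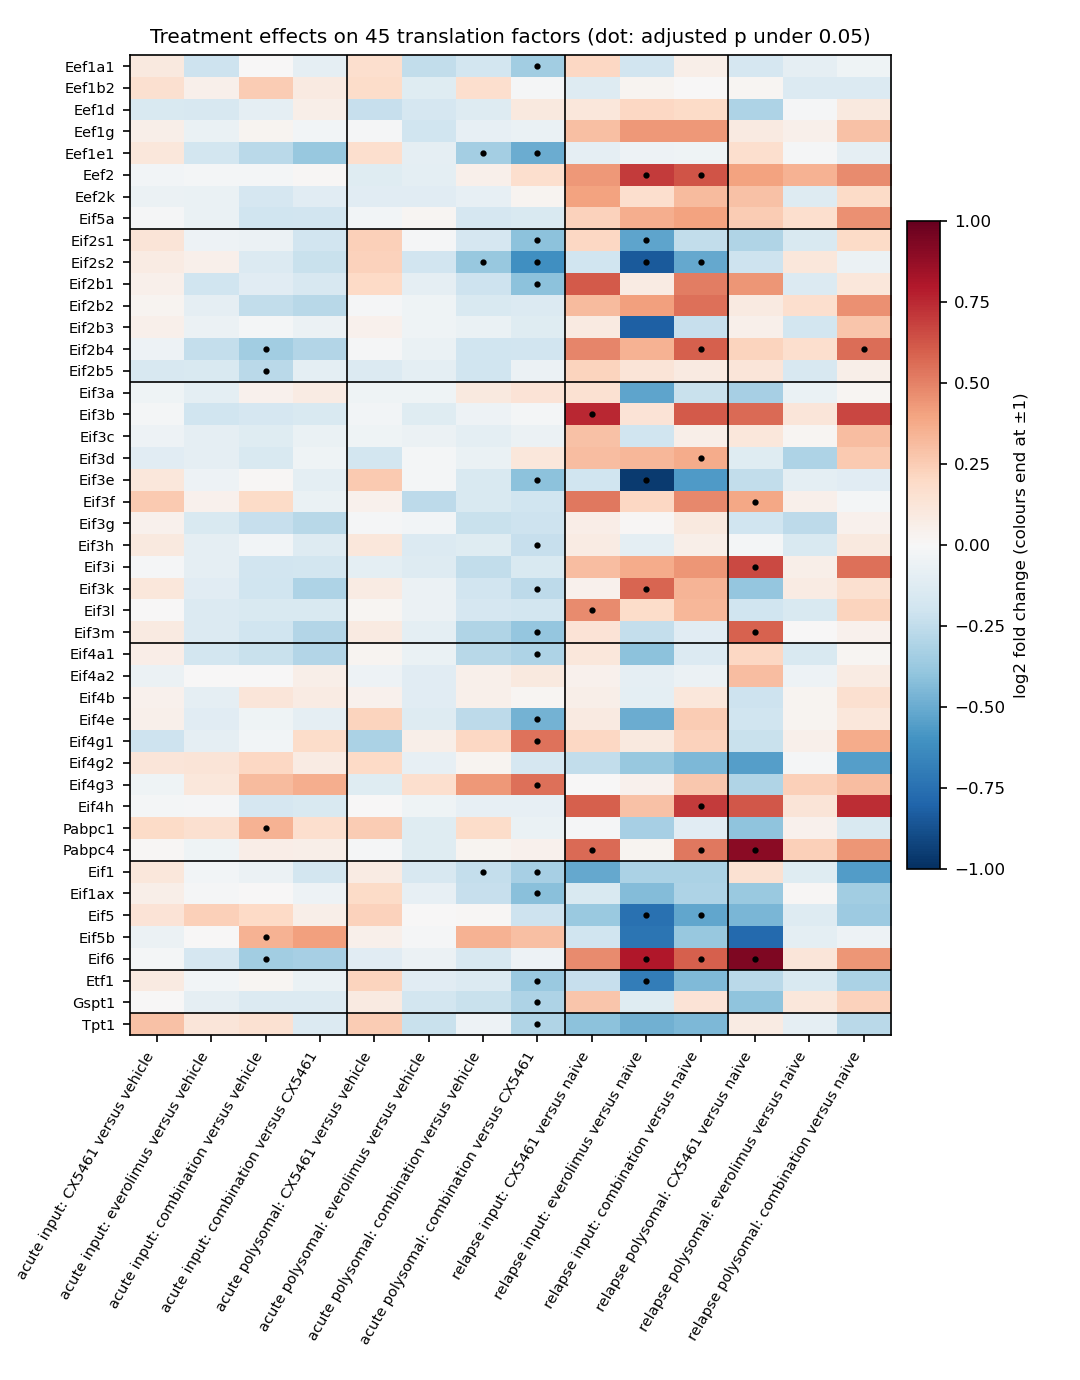
Log2 fold changes of the 45 genes (rows, grouped by role) in the drug comparisons of both studies (columns), as colours that end at ±1, with a dot where the adjusted p is under 0.05. The column for the combination against CX-5461 in acute polysomal RNA holds 18 dots, 16 of them on blue (lower) cells.

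The widest difference was between the combination and CX-5461 alone. In polysomal RNA 16 of the 45 were lower after the combination and 2 higher, 40% of them, where 23.6% of all genes passed and 10.5% were lower. By role, 3 of 7 eIF2 and eIF2B genes, 4 of 12 eIF3 subunits, both termination factors and 2 of 5 scanning and joining factors were lower. So were 2 of 8 genes listed under elongation, 2 of 10 cap and poly(A) factors and Tpt1. Among the 12 TOP genes 4 were lower (33.3%). The median of the 45 was -0.15 and of all genes -0.01. Under DESeq2, RLE scaling, no count filter and a replicate block, 17 or 18 of these 18 genes still passed, all with the same sign. With the compared groups alone 17 passed, and without the Lars2 and Yam1 libraries 16, again with the same signs. These repeats were chosen after seeing the data. Leaving out vehicle mouse 6 and combination mouse 3 kept all 18. Those mice were picked for resembling another group, so this is no support. CX-5461 mouse 3, which correlated best with the combination mean, was left out of no repeat.

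Both called eIF2 subunits and eIF4E fell clearly. Eif2s2 was at 158, 185 and 232 CPM in CX-5461 mice against 111, 121 and 135 after the combination, a difference of -0.61 ± 0.11 (adjusted p = 0.00124). Eif4e (chromosome 3, 138526179 to 138559696) was at 147, 169 and 190 against 113, 123 and 130 CPM, a difference of -0.47 ± 0.08 (0.00118). Eif2s1, the alpha subunit of eIF2 and the site of stress kinase phosphorylation, was at 239, 298 and 331 against 191, 214 and 253, a difference of -0.41 ± 0.09 (0.00372). The groups did not overlap for Eif2s2 and Eif4e, and for Eif2s1 the highest combination mouse passed the lowest CX-5461 mouse. Vehicle mice lay between: Eif4e was at 133, 146 and 158 CPM there, with 0.22 ± 0.08 for CX-5461 (adjusted p = 0.192) and -0.26 ± 0.08 for the combination (0.0539). Eif2b1, the alpha subunit of eIF2B, was also lower, at 67.9, 76.1 and 86.2 CPM against 50.9, 58.1 and 61.4, with no overlap and a difference of -0.41 ± 0.08 (0.00223).

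**Figure D3:**
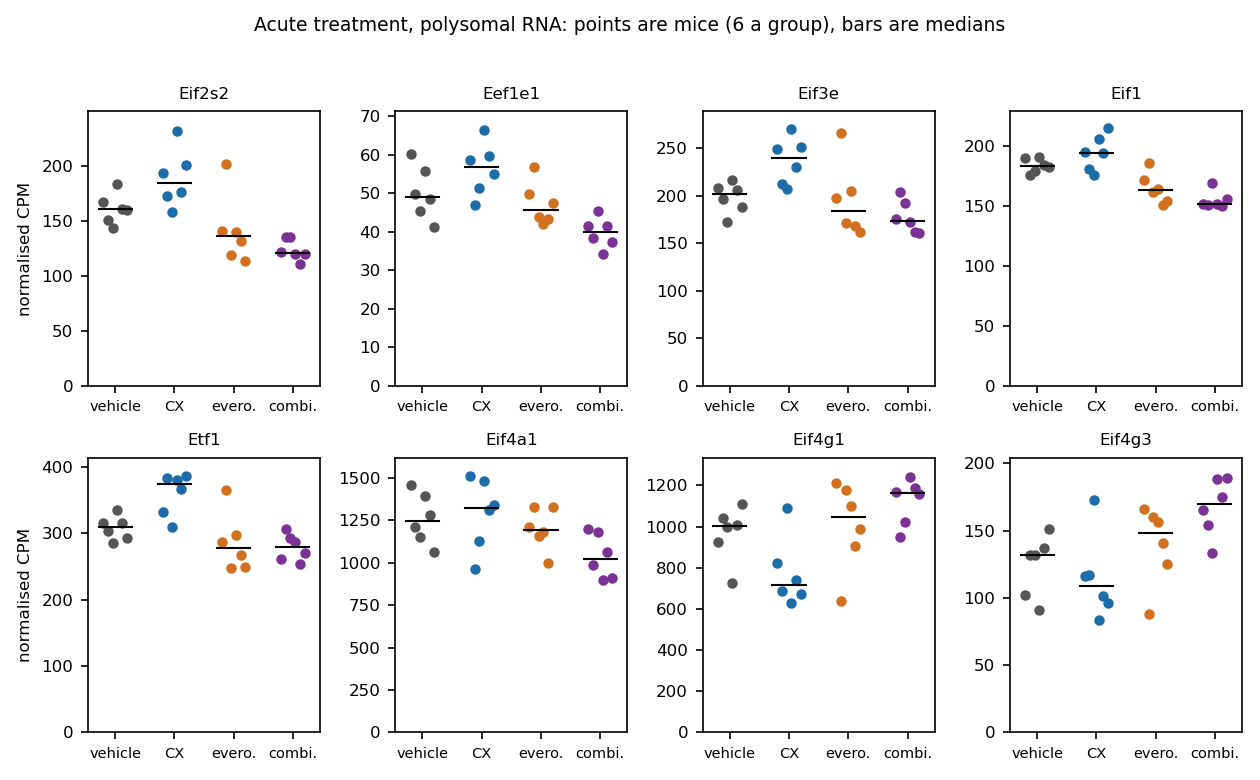
TMM-scaled CPM (vertical axis, from 0) in acute polysomal RNA for 8 genes called between the combination and CX-5461, with a point for each of 6 mice a treatment and a bar at the median. All combination points of Eif2s2, Eef1e1, Eif3e, Eif1 and Etf1 lie below all CX-5461 points, and in Eif4g1 and Eif4g3 only 1 CX-5461 mouse lies within the combination range.

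Other initiation factors moved in the same direction. Eif1 was at 176, 194 and 215 CPM after CX-5461 and 150, 152 and 169 after the combination, a difference of -0.33 ± 0.06 (adjusted p = 0.00118), with no overlap. Eif1ax, the X-linked gene of eIF1A, differed by -0.42 ± 0.10 (0.00417) with overlapping groups. Among eIF3 subunits 4 were lower, Eif3e at -0.41 ± 0.10 (0.00569), Eif3m at -0.39 ± 0.09 (0.00582), Eif3k at -0.26 ± 0.07 (0.0132) and Eif3h at -0.23 ± 0.06 (0.0122). Eif3e was at 207, 240 and 270 CPM against 161, 174 and 204, and its groups did not overlap. The helicase gene Eif4a1 was at 964, 1320 and 1510 against 898, 1030 and 1200 CPM, a difference of -0.31 ± 0.11 (0.0357) with much overlap, and its paralogue Eif4a2 did not pass (0.10 ± 0.10). Eif4a1 hosts small nucleolar RNAs in its introns and shares 6.62% of its exon bases with other genes.

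Release factors, which end translation at the stop codon, were both lower. Etf1 (eRF1) was at 309, 374 and 387 CPM after CX-5461 and 254, 279 and 306 after the combination, a difference of -0.37 ± 0.08 (adjusted p = 0.00347), and no mice overlapped. Gspt1 (eRF3a), its GTPase partner, differed by -0.31 ± 0.07 (0.00432), with overlap. Among elongation genes, Eef1e1 differed by -0.50 ± 0.10 (0.00165) with no overlap, and Eef1a1 was at 7610, 8400 and 8910 against 5790, 6420 and 7800 CPM, a difference of -0.35 ± 0.08 (0.00395). Tpt1 was at 635, 712 and 873 against 474, 585 and 701 CPM, a difference of -0.30 ± 0.10 (0.0265). Combination mice were lower at the lowest, median and highest value in both genes, and the groups overlapped. Eef2 (0.17 ± 0.09), its kinase Eef2k (0.03 ± 0.07), Eif5a (-0.15 ± 0.09), Eif4b (0.02 ± 0.06) and Pabpc1 (-0.07 ± 0.11) did not pass.

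Against this direction, 2 eIF4G genes were higher after the combination. Eif4g1, the main eIF4F scaffold (chromosome 16, 20668313 to 20692884), was at 629, 714 and 1090 CPM in CX-5461 mice and 951, 1170 and 1240 after the combination, a difference of 0.54 ± 0.14 (adjusted p = 0.00814). Eif4g3 was at 83.6, 109 and 173 against 133, 170 and 189 CPM, a difference of 0.55 ± 0.16 (0.0154). In each only CX-5461 mouse 3 lay within the range of the combination mice. Eif4g2 did not pass, at -0.17 ± 0.10. Against everolimus alone the combination changed none of the 45 (DESeq2 0), where 0.0195% of all genes passed, and 8 were at an unadjusted p under 0.05 (17.8%, against 14.8%).

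The 2 scaffold genes have the longest coding sequences of the list, and length was therefore set beside the changes. Across the 45 genes the Spearman correlation between coding length and the polysomal change was 0.65 for the combination against CX-5461, 0.58 for the combination against vehicle and -0.44 for CX-5461 against vehicle. Over the 12331 genes with a coding length (80.2% of those tested) it was 0.45, 0.38 and -0.20. Genes of 1 library share its RNA quality and fragment sizes, and these comparisons share mice, so the values are descriptions only. In the input the correlation over the 45 was 0.58, 0.29 and -0.52 for the same comparisons. Over the 12508 genes with a coding length (77.9% of those tested) it was 0.34, 0.21 and -0.17. In both fractions the genes without a coding length are left out, so these values are only a partial background. The part of transcript length in the called differences was not tested.

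**Figure D4:**
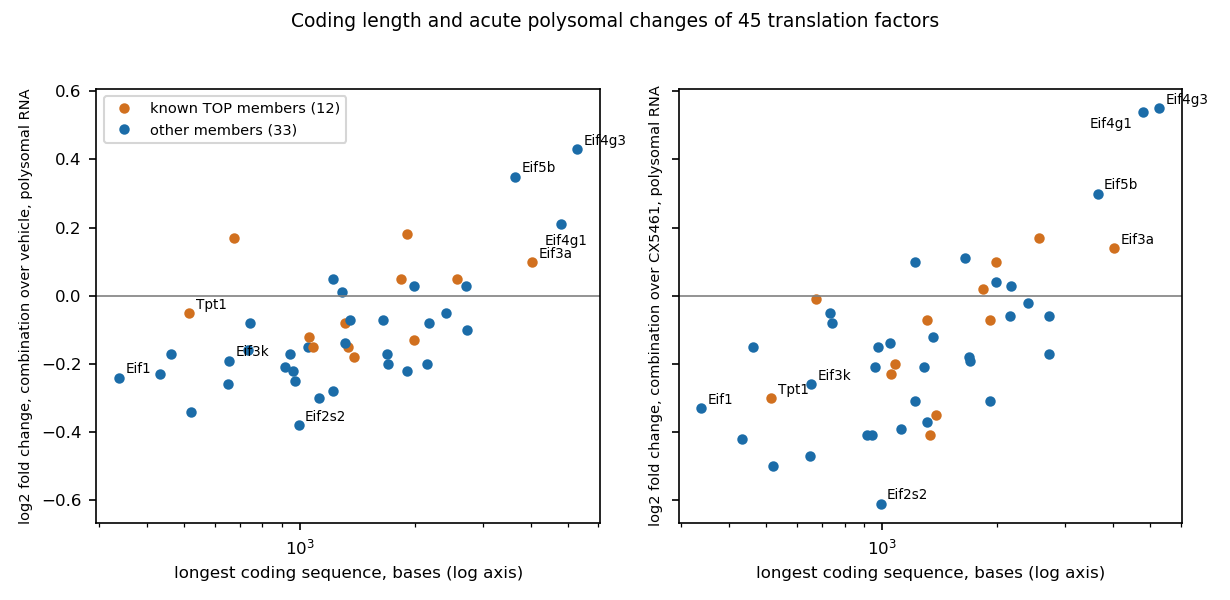
Longest coding sequence in bases (horizontal log axis) against the log2 fold change in acute polysomal RNA of the combination over vehicle (left) and over CX-5461 (right), with 1 point for each of the 45 genes and the 12 TOP genes in orange. Points rise to the right in both panels (Spearman 0.58 and 0.65), with Eif4g3 at the upper right.

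In the relapse lines more factors differed in input RNA, with 3 lines a group. Lines from CX-5461 mice had 3 of 45 higher and 0 lower (6.67%), where 8.37% of the 14474 genes passed. Those from everolimus mice had 3 higher and 5 lower (17.8%), where 11.7% passed, and those from combination mice had 6 higher and 2 lower (17.8%), where 13.5% passed. All 3 comparisons share the naive lines. These counts depended on single lines. For CX-5461 the 3 became 0 without naive line 33 or CX-5461 line 14 or 39. Without naive line 38 the count was 1, a gene not among the 3. For everolimus the 8 became 0 without line 26 and 1 without line 12. The count was 4 without naive line 6, with 3 of the 8 kept, and 5 without naive line 38 or line 4. For the combination the 8 became 11 without line 31, with 6 of the 8 kept. The count was 0 to 2 without any one of naive lines 6, 33 and 38 or combination lines 8 and 9.

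Among elongation genes Eef2 (chromosome 10, 81176631 to 81182498) was higher in 2 groups. Its input level was 5500, 6890 and 6260 CPM in naive lines 6, 33 and 38. It was 8870, 11000 and 10300 in everolimus lines 4, 12 and 26, a change of 0.70 ± 0.16 (adjusted p = 0.0209). Combination lines 8, 9 and 31 had 10400, 9820 and 8600 CPM, a change of 0.63 ± 0.16 (0.0224). Every line of both groups exceeded every naive line. CX-5461 lines 14, 20 and 39 had 8330, 8560 and 8150 CPM, also all above naive, at 0.43 ± 0.16 (0.116). Eef1a1 (0.21, -0.19 and 0.06 for CX-5461, everolimus and the combination, each ± 0.15), Eef2k (0.40, 0.17 and 0.32, each ± 0.15) and Eif5a (0.23, 0.36 and 0.40, each ± 0.15) did not pass.

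Subunits of eIF2 went down in everolimus lines. Eif2s2 was at 78.6, 71 and 69.4 CPM in naive lines and 38.7, 43.4 and 39.8 in everolimus lines, a change of -0.84 ± 0.15 (adjusted p = 0.0134). Combination lines had 42.9, 52.7 and 57.8 CPM, a change of -0.51 ± 0.15 (0.0434). Eif2s1 was at 91.8, 89.5 and 83.1 CPM in naive and 60.3, 64.2 and 59.2 in everolimus lines, a change of -0.53 ± 0.13 (0.0302). None of these groups overlapped with naive. Eif5, which acts on eIF2, fell as well, from 115, 90.6 and 85.2 CPM to 57.9, 56 and 58.9 in everolimus lines (-0.75 ± 0.16, 0.0191) and 63.1, 58.4 and 81.5 in combination lines (-0.52 ± 0.16, 0.0472). Of eIF2B, Eif2b4 was higher in combination lines, with 40.4, 58.1 and 44.1 against 32.5, 30.1 and 31.8 CPM and a change of 0.60 ± 0.15 (0.0255).

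**Figure D5:**
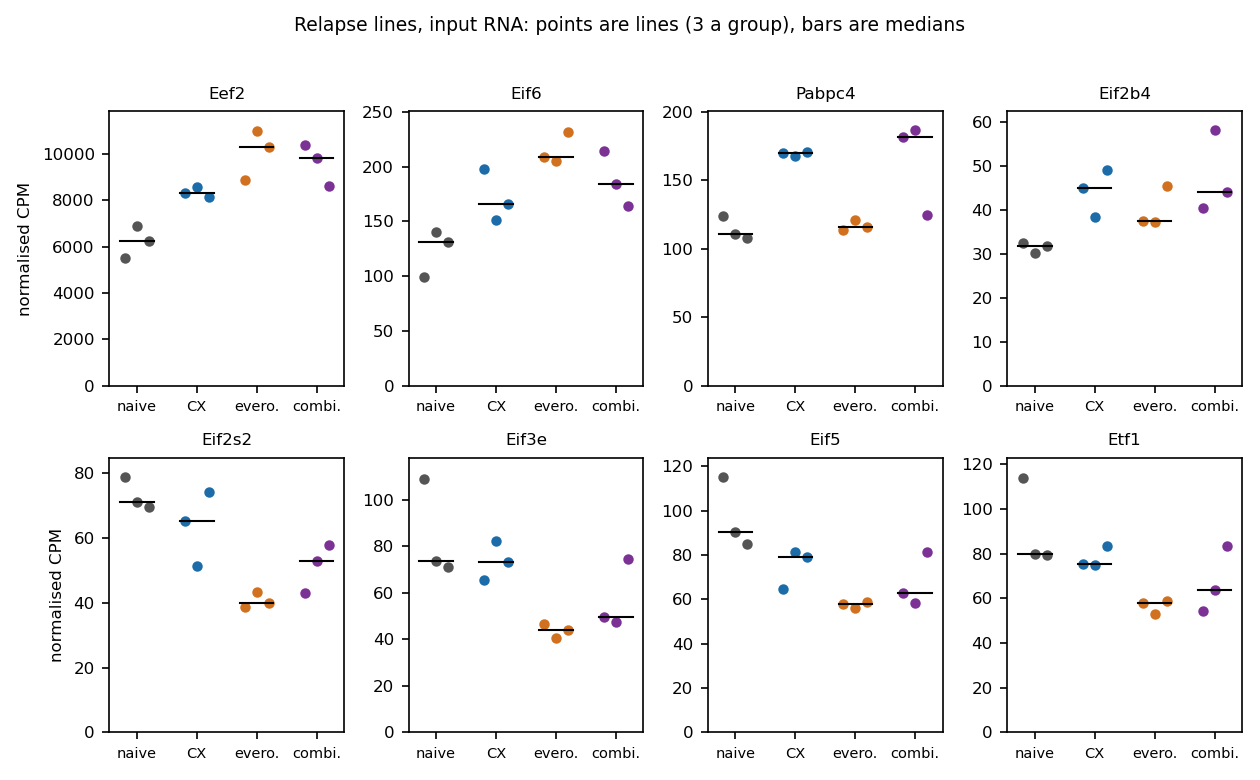
TMM-scaled input CPM (vertical axis, from 0) of 8 genes called between treated and naive lines, with a point for each of 3 lines a group and a bar at the median. Eef2 points of all treated groups lie above the naive points, and everolimus points of Eif2s2, Eif3e, Eif5 and Etf1 lie below them.

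Within eIF3 the subunits went different ways. Eif3e, a TOP gene, was at 109, 73.8 and 71 CPM in naive lines and 46.5, 40.6 and 43.9 in everolimus lines, a change of -0.96 ± 0.20 (adjusted p = 0.0194). Eif3k was at 351, 439 and 402 against 579, 499 and 700 CPM, a change of 0.58 ± 0.15 (0.0344). Neither pair overlapped. In CX-5461 lines Eif3b was at 499, 326 and 582 against 321, 261 and 251 CPM (0.75 ± 0.21, 0.0493), and Eif3l at 296, 287 and 326 against 236, 207 and 215 (0.47 ± 0.12, 0.0302). Eif3d was higher in combination lines by 0.37 ± 0.11 (0.0386). Eif3a, the largest subunit, did not pass (0.15, -0.53 and -0.22, each ± 0.17).

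Cap and poly(A) factors were higher where they passed. Pabpc4, another cytoplasmic poly(A)-binding protein, was at 124, 111 and 108 CPM in naive lines. CX-5461 lines had 170, 168 and 171 CPM, a change of 0.57 ± 0.14 (adjusted p = 0.0325). Combination lines had 182, 187 and 125 CPM, a change of 0.53 ± 0.14 (0.0328). All of these lines exceeded the naive ones, with combination line 31 close to them. Eif4h, another eIF4A cofactor, was at 618, 952 and 963 CPM in combination against 486, 521 and 557 in naive lines (0.70 ± 0.20, 0.0402). Eif6 was higher in everolimus lines, with 209, 205 and 232 against 99.3, 140 and 131 CPM (0.80 ± 0.16, 0.0174), and in combination lines, with 214, 184 and 164 (0.60 ± 0.16, 0.0298). Etf1 was lower in everolimus lines, at 57.9, 52.8 and 58.9 against 114, 79.9 and 79.6 CPM (-0.69 ± 0.18, 0.0304). Eif4e, Eif4g1, Eif4a1, Eif4a2, Eif4b, Pabpc1, Tpt1 and Eif2b5 passed in no input comparison. Among them Tpt1 was below naive in all 3 groups (-0.41, -0.48 and -0.45, each ± 0.15, lowest adjusted p = 0.0589).

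In relapse polysomal RNA the CX-5461 lines had 5 of 45 higher and 0 lower (11.1%), where 19.5% of the 14797 genes passed. Eif6 was at 316, 158 and 270 CPM against 137, 118 and 137 in naive lines (0.93 ± 0.21, adjusted p = 0.0191). Pabpc4 was at 255, 228 and 241 against 144, 126 and 117 CPM (0.90 ± 0.17, 0.00965). Both were above every naive line. Eif3i was at 408, 272 and 385 against 233, 214 and 229 CPM (0.66 ± 0.17, 0.0283), Eif3m at 193, 131 and 199 against 120, 102 and 124 (0.59 ± 0.17, 0.0391), and Eif3f at 167, 141 and 164 against 114, 129 and 117 (0.39 ± 0.11, 0.0314). In each gene all CX-5461 lines were above the naive lines and line 20 was the nearest to them.

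Polysomal libraries of CX-5461 lines 14 and 39 differed from that of line 20 in many of these genes. Gspt1 was at 198 and 195 CPM in lines 14 and 39 and 605 in line 20, where naive lines had 536, 350 and 430. Pabpc1 was at 502 and 592 against 1530, with 1300, 1070 and 1090 in naive lines. Eif5b was at 69.7 and 78 against 214, with 207, 178 and 236 in naive lines. In all 3 genes lines 14 and 39 lay below the naive lines, and line 20 lay within or above their range. Eif4e (93.4 and 101 against 238 CPM) and Eif3a (377 and 387 against 753) had the same pattern. Without line 20, 29 of the 45 passed, where 8970 genes passed in all, with Eif5b at -1.50, Gspt1 at -1.17, Pabpc1 at -1.09 and Eif6 at 1.16. Without lines 14 and 39 none passed, in a fit where line 20 alone stands for its group and is assumed to vary like the other groups, so little can be read from it. Leaving out naive line 6, 33 or 38, or line 14 or 39 alone, left 2, 0, 0, 1 and 1. In the deposited table the columns of lines 14 and 39 form a run of their own, so place in the table and line cannot be told apart.

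Everolimus lines had none of the 45 past the threshold in polysomal RNA (DESeq2 0), where 0.115% of all genes passed, and 2 were at an unadjusted p under 0.05 (4.44%, against 8.54%). The factors that were lower in their input were near the naive level here: Eif2s2 at 201, 178 and 196 against 214, 141 and 179 CPM (0.11 ± 0.23), and Eif3e at 256, 176 and 236 against 255, 207 and 251 (-0.10 ± 0.21). In both the groups overlapped. Combination lines had 1 of 45 higher, Eif2b4 (2.22%, where 10% of all genes passed), with 53.5, 67.8 and 64 against 43.4, 41.4 and 40.5 CPM and a change of 0.56 ± 0.11 (adjusted p = 0.0116). Its 3 combination lines were above every naive line in both fractions. The count became 0 without naive line 33 or 38 and 3 without combination line 8. Eef2 (0.47 ± 0.15, 0.077) and Eif4h (0.74 ± 0.22, 0.0555) did not pass there.

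Translational efficiency in the lines had no call among the 45 for any group, and 0% of the 15637 genes passed. At an unadjusted p under 0.05 there were 9 for CX-5461 (20%), 11 for everolimus (24.4%) and 2 for the combination (4.44%), where 20.8%, 10.5% and 3.7% of all genes were. In everolimus lines the terms were largest for Eif2s2 (0.99 ± 0.30, adjusted p = 0.378), Eif3e (0.84 ± 0.23, 0.366), Eif2b3 (0.70 ± 0.26, 0.424), Eif6 (-0.68 ± 0.22, 0.391), Eif5 (0.63 ± 0.23, 0.424) and Eif3d (-0.62 ± 0.13, 0.366). Polysomal minus input log2 CPM of Eif3e was 0.57, 0.81 and 1.16 in naive lines in rising order and 1.45, 1.80 and 1.83 in everolimus lines. For Eif3d it was -0.10, 0.02 and 0.14 against -0.61, -0.59 and -0.59. In both genes the groups did not overlap. For CX-5461 16 passed without line 20, among them Pabpc1 at -1.10 ± 0.18 (adjusted p = 6.77e-04), and none with it.

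Polysomal over input RNA in the naive lines had 17 of 45 higher and 7 lower (53.3%), where 44.1% of all genes passed (23% higher and 21.1% lower). The median was 0.25, against -0.10 for all genes. Of the 45, 28 passed in CX-5461 lines, 31 in everolimus lines and 27 in combination lines, where 49.6%, 54% and 46.2% of all genes passed. Eif2b3 was highest in naive lines at 1.74 ± 0.18, ahead of Eif5b (1.73 ± 0.29) and Eif5 (1.41 ± 0.17). Lowest were Eef2, with log2 differences of -1.16, -1.09 and -0.74 in the 3 naive lines, and Eif3k (fitted value -0.85 ± 0.15). Of the 12 TOP genes 3 were higher and 3 lower, with a median of 0.10.

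Across both settings 19 genes passed in vehicle mice and naive lines, and 14 of them had the same direction. Higher in both were Eif2s1, Eif2s2, Eif2b3, Eif3b, Eif3c, Eif4e, Eif4g2, Eif1ax, Eif5 and Etf1, and lower in both were Eef1d, Eef1g, Eef2 and Eif3k. Directions differed for Eif2b1, Eif3e, Eif3h and Eif3m, which were lower in vehicle mice and higher in naive lines, and for Eef2k, which was 0.19 ± 0.05 in mice and -0.35 ± 0.09 in lines. The Spearman correlation between the settings was 0.57 over the 45 and 0.57 over the 13988 genes fitted in both. Mice and lines differ in clone, in culture and in the other cells present, and the difference between the settings was not tested.

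Other genes that act on these factors give the surroundings, 43 of them in the tables and 39 or 40 past the filter on low counts. In acute input 3 of 40 fell after the combination (7.5%, where 7.48% of all genes passed), and in polysomal RNA 2 of 39 (5.13%, against 7.42%). Eif4ebp1, the mTORC1-controlled inhibitor of eIF4E, fell after the combination by -0.52 ± 0.11 in acute input (adjusted p = 0.00667) and -0.57 ± 0.13 in polysomal RNA (0.0177), and had -0.31 ± 0.10 (0.229) and -0.32 ± 0.13 (0.386) after everolimus. In acute input Eif4a3, a helicase of the exon junction complex, and Pelo, a ribosome rescue factor, also fell (-0.34 ± 0.09 and -0.29 ± 0.08), and in polysomal RNA the stress kinase gene Eif2ak2 fell by -0.37 ± 0.10. Eif4ebp1 was also lower after the combination than after CX-5461 in the input (-0.51 ± 0.11, adjusted p = 0.026), the 1 call of 40 there. Between these groups in polysomal RNA, 13 of 39 were lower and 3 higher (41%), where 23.6% of all genes passed and 10.5% were lower. The lowest were Denr (-0.47 ± 0.08), Eif3j1 (-0.46 ± 0.09), Eif3j2 (-0.40 ± 0.10) and Eif4ebp1 (-0.37 ± 0.13). Higher were the stress kinase genes Eif2ak3 (0.41 ± 0.10) and Eif2ak4 (0.24 ± 0.08), and Larp1, the TOP mRNA-binding repressor (0.36 ± 0.10). Eif2s3x, the gamma subunit of eIF2, was lower there with its partners, by -0.25 ± 0.08 (adjusted p = 0.0194).

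In vehicle mice Pdcd4, an inhibitor of eIF4A, was highest of these on polysomes relative to input (1.12 ± 0.06), and Gnb2l1, which encodes the ribosomal scaffold RACK1, was low (-0.91 ± 0.06), as was Eef1a2 (-1.95 ± 0.23). Pdcd4 (1.80 ± 0.18) and Gnb2l1 (-0.81 ± 0.18) had the same direction in naive lines.

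In relapse input 6 of 39 of these genes passed in CX-5461 lines (15.4%, against 8.37% of all genes), 11 in everolimus lines (28.2%, against 11.7%) and 11 in combination lines (28.2%, against 13.5%). These fits depended on single lines. With 1 line left out, 365 to 1139 genes passed in all for CX-5461, 90 to 991 for everolimus and 766 to 1892 for the combination. Ppp1r15a, which directs a phosphatase to eIF2, was higher in all 3 treated groups (0.68, 0.72 and 0.72, each ± 0.12), with Pelo higher in CX-5461 (0.86 ± 0.21) and combination lines (0.77 ± 0.21) and Eif4a3 in the same groups (0.56 ± 0.11 and 0.40 ± 0.11). Gnb2l1 (0.59 ± 0.17), the selenocysteine elongation factor gene Eefsec (0.58 ± 0.12) and Eif2d (0.47 ± 0.14) were higher in everolimus lines, and Eif2ak4 in combination lines (0.55 ± 0.16). Paip2b, an inhibitor of poly(A)-binding protein, fell in all 3 groups (-0.88, -0.72 and -1.07, the last ± 0.20 and the others ± 0.19). Eif4e3, a relative of eIF4E, fell in CX-5461 (-1.15 ± 0.26) and combination lines (-1.17 ± 0.26). Eif2ak2 fell in everolimus (-0.96 ± 0.21) and combination lines (-1.08 ± 0.21), as did Eif3j1 (-0.75 ± 0.20 and -0.77 ± 0.20). Eif3j2 (-0.83 ± 0.24), Larp4 (-0.72 ± 0.21) and Eif2s3x (-0.68 ± 0.17, adjusted p = 0.0277), which fell with Eif2s1 and Eif2s2, were lower in everolimus lines.

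In relapse polysomal RNA 7 of the 39 passed in CX-5461 lines (17.9%, against 19.5% of all genes), 0 in everolimus lines and 3 in combination lines (7.69%, against 10%). These fits depended on single lines too, and CX-5461 lines 14 and 39 differed from line 20, as above. With 1 line left out, 505 to 8970 genes passed in all for CX-5461 and 460 to 981 for the combination. Higher in CX-5461 lines were Pelo (0.86 ± 0.19), Gnb2l1 (0.72 ± 0.17, adjusted p = 0.0197), Mknk2, a kinase gene of eIF4E (0.58 ± 0.16), and Eif2ak4 (0.54 ± 0.16), and lower were Eif4e3 (-1.17 ± 0.32) and Eefsec (-0.43 ± 0.13). In combination lines Mknk2 was higher (0.57 ± 0.16), and Paip2b (-1.07 ± 0.16) and Ppp1r15b, a partner of the eIF2 phosphatase (-0.61 ± 0.14), were lower. Eif5a2, a paralogue of Eif5a, passed as lower in CX-5461 lines in both fractions (adjusted p = 0.0118 in input and 0.0103 in polysomal RNA). Its counts were 36, 7 and 32 in the input of naive lines 6, 33 and 38 and 0, 0 and 2 in CX-5461 lines 14, 20 and 39, and 62, 24 and 45 against 1, 0 and 0 in polysomal RNA. Counts this close to 0 give no usable fold. Larp1, Pdcd4 and Eif4ebp1 passed in no relapse comparison of treated with naive lines.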

How the data were processed

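The 4 deposited tables hold whole-number read counts per gene, which the authors made from 50-base single-end reads with TopHat2 and HTSeq on GRCm38, per the submitters' processing notes; versions, annotation and strand setting are not given in the sources used here. Libraries were ribodepleted, per the labels' protocols. All 72 columns matched a sample by name, and rows that name no gene were left out. Input and polysomal RNA of each study were fitted separately with edgeR 4.0.16 (R 4.3.3; filterByExpr, TMM, quasi-likelihood test) over all genes and all 4 treatments, with Benjamini-Hochberg adjustment and a threshold of 0.05. Polysomal over input RNA and its change with treatment came from 1 model over both fractions with the mouse or line as a block. SE is the absolute log2 change divided by the square root of F. Levels are TMM-scaled CPM computed here, and log2 CPM used a prior count of 2. At the library totals given above, the lowest count of a listed gene was 41. Coordinates, exon and coding lengths are from GENCODE M21 and start sequences from RefSeq. Alternatives were DESeq2 1.42.0, a replicate block, RLE scaling, the compared groups alone, dropping the filter and leaving out libraries, and scripts were tested on simulated counts. A term for the run of columns was chosen after seeing the data. So were some repeats without libraries or with the compared groups alone, in the comparisons of the combination with single drugs. Same-numbered acute mice did not deviate together on average in either fraction. Over 36 pairs the mean r was 0.0115 in input and -0.0265 in polysomal RNA, with 14 and 12 over 0.1. Single pairs ran from -0.56 to 0.38 in input and from -0.48 to 0.37 in polysomal RNA. No label says that the numbers pair mice, and a mean near 0 cannot exclude it, so mice were treated as unpaired.

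All 45 genes may be named. Values are given for those past the threshold, up to 6 with the largest rise and 6 with the largest fall per comparison, and whatever their result for Eef1a1, Eef2, Eef2k, Eif5a, Eif2s1, Eif2b5, Eif3a, Eif3e, Eif4a1, Eif4a2, Eif4b, Eif4e, Eif4g1, Pabpc1, Tpt1 and Etf1. Other factors are named where they pass, up to 4 per direction, and Eif4ebp1, Pdcd4, Eif2s3x, Gnb2l1 and Larp1 in any case. The members and lists were chosen with earlier results of these data known.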

Additional observations from a re-analysis of the deposited data

Results flagged for a closer look

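In 16 of 232 acute groups of 6 mice, over 29 genes, 1 mouse stood apart, its gap to the nearest mouse taking a share of the group's range above Dixon's critical value. Chance gives this in about 1 in 20 groups. In input RNA these were Eif2s2 in vehicle mouse 6 (115 CPM), Eif4e in vehicle mouse 1 (104), Eif2b1 in CX-5461 mouse 4 (50.8), Eif4a2 and Pabpc1 in CX-5461 mouse 3 (104 and 993), Eef1a1 in everolimus mouse 4 (5270), Eif3e and Eif1ax in everolimus mouse 2 (263 and 97.3) and Eif2b5 in combination mouse 6 (127). In polysomal RNA they were Eif1ax in vehicle mouse 3 (95.1 CPM), Eif4g3 in CX-5461 mouse 3 (173), Pabpc1 in CX-5461 mouse 2 (1660), Eef1a1 and Eif2s2 in everolimus mouse 2 (7670 and 202), Eif5b in everolimus mouse 4 (125) and Eif1 in combination mouse 3 (169). Everolimus mouse 2 accounts for 4 of the 16, and its input library is 1 of those rich in Gm26870 and Gm10800.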

How the results depend on the processing

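Of 211 alternative counts of called genes 154 stayed within 1.5 times the count reported. An alternative count can include genes other than those reported as called. For the combination against vehicle in acute input (5), RLE size factors gave 3, no count filter 0, the replicate block 1, the compared groups alone 0, leaving out the libraries rich in Gm26870 and Gm10800 gave 3 and leaving out vehicle mouse 6 and combination mouse 3 gave 13. Those 2 mice were picked from these data for resembling another group, so rises without them follow in part from that choice. Against CX-5461 in acute input (0), DESeq2 gave 9 and leaving out those 2 mice 7. In acute polysomal RNA against vehicle (3), DESeq2 gave 7, the compared groups alone 6, leaving out the Lars2 and Yam1 libraries 5 and those 2 mice 13. The efficiency count for the combination (0) was 1 with no filter and 1 without those 2 mice. In relapse input DESeq2 gave 10, 15 and 18 for CX-5461 (3), everolimus (8) and the combination (8), the compared groups alone 1, 5 and 0, and the run of columns as a term 14, 23 and 20. In relapse polysomal RNA CX-5461 (5) had 10 with DESeq2, 3 with no filter and 1 with the compared groups alone. With the run term, as without lines 14 and 39, line 20 alone stands for the CX-5461 group and is assumed to vary like the other groups. No count is given here for those fits. The combination (1) had 8 with DESeq2, 2 with RLE, 11 with the compared groups alone and 14 with the run term. The CX-5461 efficiency count (0) was 1 with no filter. Leaving out 1 line gave 0 to 4, 0 to 6 and 0 to 11 in input, 0 to 29, 0 to 0 and 0 to 3 in polysomal RNA, and 0 to 16, 0 to 0 and 0 to 0 for efficiency. Polysomal over input counts ran from 19 to 23 in naive, 23 to 27 in CX-5461, 25 to 27 in everolimus and 23 to 24 in combination lines. The cause of these moves was not tested. No paired analysis of the relapse lines was possible because the groups share no line numbers.

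Single genes that changed sign were Eif3a after CX-5461 (0.13) and everolimus (0.12) and Eif5a after everolimus (-0.07) in acute polysomal RNA without the Lars2 and Yam1 libraries. Without naive line 6, relapse input values became 0.00 for Eif3e (range over left-out lines -0.31 to 0.00) and 0.21 for Pabpc1 (-0.14 to 0.21) in CX-5461 lines, and 0.10 for Pabpc1 (-0.25 to 0.10) in combination lines. In CX-5461 polysomal RNA, values with the run term and without lines 14 and 39 were 0.20 and 0.36 for Eef1a1, -0.31 and -0.32 for Eef2k, 0.17 and 0.29 for Eif2s1, -0.05 and -0.04 for Eif2b5, 0.18 and 0.24 for Eif3a, 0.27 and 0.17 for Eif3e, 0.18 and 0.10 for Eif4b, 0.49 and 0.52 for Eif4e, 0.01 and 0.11 for Eif4g1 and 0.36 and 0.40 for Pabpc1, and 0.03 for Etf1 with the run term. None of these passed the threshold as reported. In polysomal RNA lines 14 and 39 make up a run of their own, so with the run term the CX-5461 values rest on line 20 alone. The values with the run term and without lines 14 and 39 are therefore not separate checks.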
